A study of Mus musculus with 6 samples.

Results

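The genes described here encode postsynaptic-type scaffold proteins of 4 families: Dlg1, Dlg2, Dlg3 and Dlg4, Grip1, Shank1, Shank2 and Shank3, and Homer1 and Homer2. They were chosen by family from a gene list of 10 on which the OBX minus control differences of these same arrays, at gene level and in single probe sets, had already been seen, and the list directs attention to single exons that deviate from the rest of their gene. Of the 10 genes, 8 had probe sets with 1 gene symbol among the 16380 genes that could be summarised, and Shank1 and Shank2 were not analysed here. Because the list was drawn up with the comparison of the 2 sides in view, the values of the scaffold genes below are a description and carry no p-values.

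A scaffold protein has several binding domains and holds receptors, channels and enzymes together under a membrane. Dlg proteins carry PDZ domains, which grip the tail ends of membrane proteins, an SH3 domain and an inactive guanylate kinase-like domain that binds Dlgap proteins. Shank proteins bind Dlgap proteins and Homer proteins, Homer proteins bind group I metabotropic glutamate receptors and inositol trisphosphate receptors, and Grip1 binds AMPA receptor tails. These proteins are best known from the postsynaptic density, but Dlg1 also helps to set up apical and basal membranes in epithelial cells, and olfactory sensory neurons (OSNs) place their output synapses in the olfactory bulb, outside the sampled tissue.

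Olfactory epithelium was taken from 3 male C57BL/6 mice 5 days after unilateral olfactory bulbectomy (OBX), which cuts the axons of all OSNs on 1 side of the nose. The labels give an age of 8 weeks, while the study's methods give a younger one. The OBX group is the epithelium ipsilateral to the removed bulb and the control group is the contralateral epithelium of the same mouse, so the controls also came from operated animals and no unoperated mouse was among the 6 samples used here. Each side of each mouse was hybridised to its own Affymetrix Mouse Exon array, on which most exons have a short group of probes, a probe set. Values are log2 signal, a difference of 1 being a doubling, and differences are OBX minus control averaged over 3 mice with the standard error (SE) of the limma fit. The number of arrays limits the precision.

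The tissue carried the markers of its label. All 12 tested marker genes of mature OSNs were lower on the OBX side (limma, adjusted over all genes), and Omp, the olfactory marker protein, read 14.28, 14.20 and 14.19 on the control side and 13.61, 12.66 and 13.35 on the OBX side. The mean of the mature OSN markers was 12.26 to 12.47 on control arrays and 10.39 to 11.39 on OBX arrays, and the dimmest of them averaged 10.96 on the control side. Markers of macrophages went the other way, with 8 of 16 higher and list means of 7.89 to 8.26 on control and 8.53 to 9.42 on OBX arrays. Of the dividing precursor markers 7 of 11 were higher, and their mean was 8.85 to 9.001 on control and 9.38 to 9.65 on OBX arrays. Of the other lists, 3 of 11 markers of immature OSNs were lower and 4 of 7 of horizontal basal cells, 3 of 8 of sustentacular cells and glands and 3 of 10 of endothelium and stroma were higher. In the remaining lists 1 of 7 markers of ensheathing glia was higher and 1 of 8 of ciliated respiratory cells lower. Over all genes 9.89% were called higher and 12.7% lower, close to the shares in these last 2 lists, whose means overlapped between the sides. The marker differences lie between the same arrays as every difference below, and their part in the results was not tested. In whole tissue, fewer cells of a type and less RNA per cell cannot be told apart.

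RefSeq places 20 start sites on the 8 measured genes, and Dlg2 has the widest spacing, 3 starts over 1144 kb. The 250 bases before each Dlg2 start are shown because the probe sets of Dlg2 divided into groups that moved differently, and the middle of the Dlg4 starts is shown as the 1 start of a fallen gene that holds the Ebf core, a recognition sequence of transcription factors active in OSNs. All are on the plus strand of GRCm38.p6 and read 5′ to 3′, with capitals marking the CCAAT box, the TATA box (TATAAA) and the core of the Ebf consensus (CCCNNGGG) on either strand.
Dlg2 first start, chr7:91090536-91090785: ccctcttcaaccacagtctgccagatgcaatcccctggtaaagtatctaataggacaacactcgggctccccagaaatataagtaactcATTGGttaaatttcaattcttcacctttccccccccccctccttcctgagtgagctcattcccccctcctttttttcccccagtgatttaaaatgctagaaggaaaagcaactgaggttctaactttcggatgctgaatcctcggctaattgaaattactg
Dlg2 middle start, chr7:92062144-92062393: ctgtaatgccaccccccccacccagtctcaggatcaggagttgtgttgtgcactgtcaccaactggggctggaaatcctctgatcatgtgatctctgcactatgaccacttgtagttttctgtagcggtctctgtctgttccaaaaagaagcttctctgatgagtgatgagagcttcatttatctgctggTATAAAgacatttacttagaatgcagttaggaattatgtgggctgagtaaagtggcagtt
Dlg2 last start, chr7:92234720-92234969: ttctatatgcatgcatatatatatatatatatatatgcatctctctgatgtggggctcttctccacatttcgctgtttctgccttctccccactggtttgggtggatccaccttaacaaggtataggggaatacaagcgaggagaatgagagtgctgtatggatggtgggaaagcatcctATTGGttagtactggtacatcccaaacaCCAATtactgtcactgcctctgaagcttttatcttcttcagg
Dlg4 middle start, chr11:70018355-70018604: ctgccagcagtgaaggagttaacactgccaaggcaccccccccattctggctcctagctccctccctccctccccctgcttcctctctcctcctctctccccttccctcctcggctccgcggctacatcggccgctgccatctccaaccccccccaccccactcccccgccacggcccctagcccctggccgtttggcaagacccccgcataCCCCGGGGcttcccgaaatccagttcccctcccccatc
The first and last Dlg2 windows held CCAAT and the middle one TATAAA, with 972 kb between the first and middle starts and 173 kb between the middle and last. CCAAT stood in 33.8% of the 32851 windows of this length in RefSeq, TATAAA in 12.4% and CCCNNGGG in 11.8%, against 6, 4 and 3 of the 20 windows of the scaffold genes. Besides Dlg4, CCCNNGGG stood in the Shank3 window, with 3 matches, and in a Homer2 window, with 1. Neither Shank3 nor Homer2 was called at gene level. These are letter matches only, and positions of the probe sets along the genes were not used here, so no probe set is assigned to a start.

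At gene level Dlg1, Dlg2 and Dlg4 fell on the OBX side and the other 5 measured genes were not called. The fit across 14742 genes called 3 of the 8 scaffold genes lower on the OBX side and 0 higher, where 12.7% of all genes were called lower and 9.89% higher at an adjusted p under 0.05. The median difference of the 8 genes was -0.29, and over all genes it was -0.01. Every control value lay above every OBX value in 5 of the 8, a pattern of 20.7% of all genes, and the opposite in 0, also 20.7% of all genes. Nothing is read from these counts, since the same comparison guided the choice of genes.

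Dlg2, also known as PSD-93 or chapsyn-110, had the largest difference. Its control arrays read 9.44, 9.24 and 9.49 in mice 1, 2 and 3, and its OBX arrays 8.83, 7.99 and 8.38. The sides did not overlap, with a difference of -0.99 (SE 0.15), 1.98-fold lower, and within mice it was -0.62, -1.24 and -1.11. The OBX values were more spread (SD 0.42, n = 3) than the control values (SD 0.14, n = 3).

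Dlg4 encodes PSD-95, the most abundant scaffold of excitatory synapses in the brain. Control levels were 10.08, 9.70 and 9.92, and OBX levels 9.36, 8.89 and 9.12. The 2 sides were apart in all mice by nearly the same step, -0.73, -0.81 and -0.80, and the difference was -0.78 (SE 0.08), 1.71-fold lower.

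Dlg1 encodes SAP97, the family member also found in epithelia. It read 10.80, 10.77 and 11.06 on the control side and 10.44, 10.34 and 10.47 on the OBX side. Again the sides did not overlap, and the difference was -0.46 (SE 0.09), 1.37-fold lower. Its call was lost without any 1 of the mice, while those of Dlg2 and Dlg4 were lost without mouse 3 alone (differences of -0.39, -0.93 and -0.77 for Dlg1, Dlg2 and Dlg4 without mouse 3).

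Dlg3 encodes SAP102, a scaffold that carries NMDA receptors early in synapse formation. Levels were 8.99, 8.82 and 8.95 on the control side and 8.94, 8.58 and 8.88 on the OBX side, which overlap, and the difference was -0.12 (SE 0.09). This member was not called. Among its relatives, Dlg5, a more distant Dlg gene of cell polarity, stood at 0.17 (SE 0.09, limma adjusted p = 0.223).

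**Figure D1:**
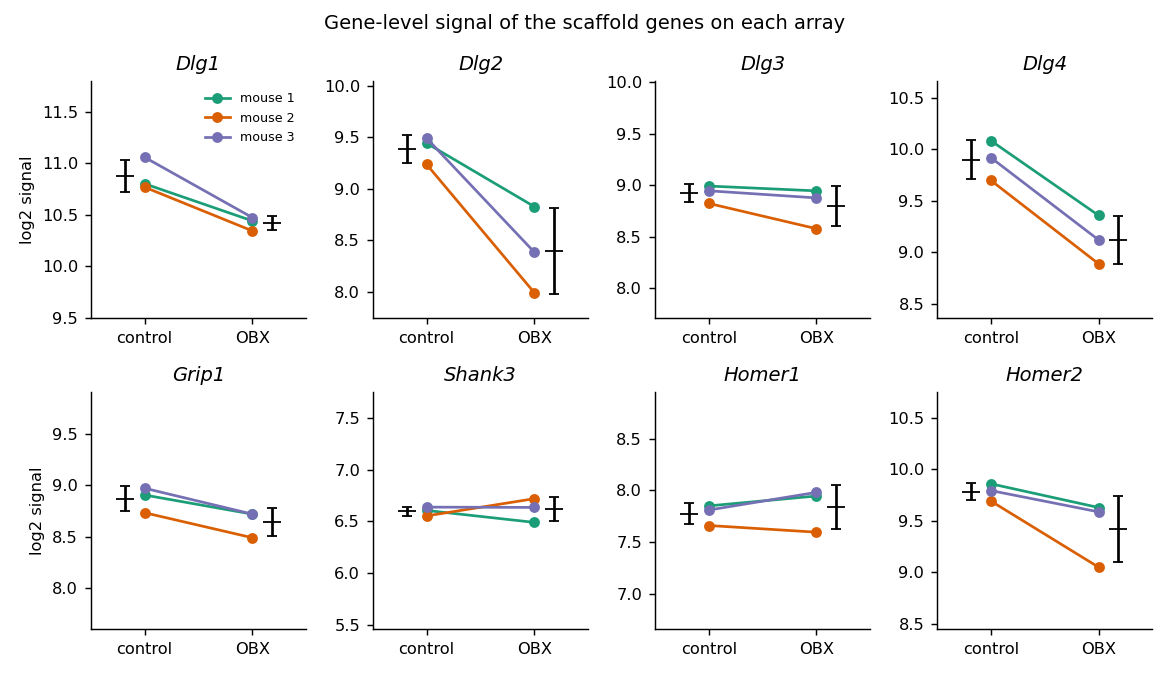
Gene-level log2 signal of the 8 measured scaffold genes on control and OBX arrays, with a line for each mouse and, beside the points, the mean with SD (n = 3). The vertical axis spans the same range of log2 units in each panel, and the steepest lines are those of Dlg2 and Dlg4, whereas Shank3 and Homer1 have lines in both directions.

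The other families differed less. Grip1, a multi-PDZ protein that ties AMPA receptors and ephrin ligands to motor proteins, read 8.91, 8.73 and 8.97 on the control side and 8.72, 8.49 and 8.72 on the OBX side. The OBX values lay just under the control values, at -0.23 (SE 0.08), and were lower in each mouse. This difference was not called by limma, and it passed the methods' paired t-test at an unadjusted p under 0.05. Grip2, its close relative, was not analysed here.

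Shank3 encodes the scaffold that links Dlgap and Homer proteins in the deeper layer of the density. Values were 6.61, 6.55 and 6.64 on the control side and 6.49, 6.72 and 6.64 on the OBX side. They overlap and the difference was 0.02 (SE 0.10), with mice 1 and 2 on opposite sides of zero.

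Homer2 read 9.86, 9.69 and 9.79 on the control side and 9.63, 9.05 and 9.59 on the OBX side. The sides did not overlap, yet the difference of -0.36 (SE 0.12) was not called. Mouse 2 had the widest step, -0.64, against -0.23 and -0.21 in mice 1 and 3. Homer1, whose short form breaks the bridges that the long Homer proteins build, read 7.85, 7.66 and 7.81 on the control side and 7.95, 7.59 and 7.98 on the OBX side. These overlap, at a difference of 0.07 (SE 0.09). The relative Homer3 stood at 0.28 (SE 0.09, limma adjusted p = 0.0955) and was not called either.

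The single probe sets show what the gene values average over. The 8 genes have 197 probe sets, of which 185 were kept and 12 fell among the dimmest 10% of all probe sets. Of the 185 kept, 29 were called lower and 3 higher in a fit across 188351 probe sets, where 4.26% were called lower and 2.5% higher. Of those 29, Dlg2 had 12, Dlg4 had 12, Dlg3 had 3 and Dlg1 had 2. Differences were below zero for 131 probe sets and above zero for 54.

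To ask which probe sets deviate from their gene, each difference was set against the mean difference of the other probe sets of the gene with limma's diffSplice. It called 20 probe sets of the scaffold genes above and 6 below the rest of their gene, where 0.516% and 0.332% of 183215 probe sets were called. All measured members other than Homer1 had a call in the test per gene, 7 of 8, against 7.99% of 13357 genes. Nothing is read from these shares, since exons deviating from their gene on these arrays guided the choice of genes. The test pools the spread over all probe sets of a gene, and with the spread of each probe set taken by itself it called 0 of 183215, with the smallest adjusted p at 0.281. At an unadjusted p under 0.05 that second version had 65 of the 185 probe sets, 35.1%, against 9.74% of all probe sets, a difference that the choice of genes also fixes. The deviations below are a description.

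**Figure D2:**
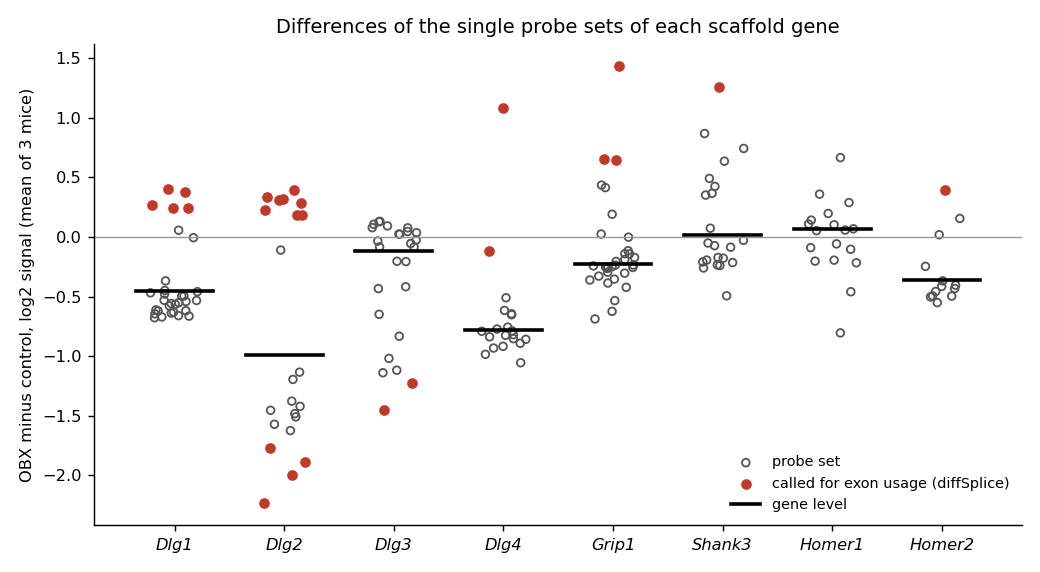
OBX minus control difference in log2 signal (mean of 3 mice) for each kept probe set of the 8 genes, with the gene-level difference as a black bar and probe sets called by diffSplice in red. Dlg2 and Dlg1 each fall into separate clusters, with the gene-level bar of Dlg2 in the empty interval between them, and Dlg4, Grip1 and Shank3 each have 1 probe set far above the rest.

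Dlg2 was split. In order of their differences, 13 of its 22 kept probe sets lay between -2.23 and -1.13 and the other 9 between -0.11 and 0.39, with an empty interval of 1.02 log2 units. This division was drawn from the mean over the 3 mice, so it has no test, and the order of the groups within each mouse is largely fixed by it. Of the lower group 12 were called lower, and 1 of these, 4862108, had an OBX mean of 4.29, under the limit of 5.07 that sets the dimmest 10% of probe sets apart, and was kept only through the control side (6.06). The mean of that group was -1.14, -1.88 and -1.74 in mice 1, 2 and 3. For the other 9 the means were 0.28, 0.20 and 0.23.

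The gene-level difference of Dlg2, -0.99, lay in the empty interval and held for no probe set. It moved with the summary used. Taking the median of the probe sets on each array gave -0.15 with no call, and leaving out the dimmest 30% of probe sets gave -1.30. Mean signals ran from 5.17, just above the dimmest 10%, to 11.02 in the lower group and from 6.84 to 9.67 in the other.

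Probe set 5276824 fell the most. It read 10.37, 10.71 and 10.93 on control arrays and 8.99, 7.98 and 8.35 on OBX arrays, a difference of -2.23 (SE 0.29). At the other end, probe set 5569347 read 8.50, 8.51 and 8.60 on control arrays and 8.89, 8.82 and 9.08 on OBX arrays. Its difference was 0.39 (SE 0.13), and it deviated from the other Dlg2 probe sets by 1.29. For each of these 2 probe sets the sides did not overlap, in opposite directions. The fit across probe sets called 5276824 lower and did not call 5569347. In all, diffSplice placed 8 Dlg2 probe sets above and 4 below the rest of the gene.

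Dlg1 was divided in the same manner on a smaller scale. Of its 31 probe sets, 24 lay between -0.68 and -0.37 and 7 between -0.01 and 0.40. The empty interval was 0.36 log2 units, against 1.02 in Dlg2. Gaps of similar size, 0.39 in Shank3 and 0.35 in Homer1, each set 1 probe set apart, and a gap of 0.27 parted 10 Homer2 probe sets from 3. The mean of the 24 was -0.41, -0.57 and -0.71 in mice 1, 2 and 3, and that of the 7 was 0.34, 0.20 and 0.15. This division too was drawn from the same values and supports nothing. The mean signals ranged from 9.13 to 12.09 and from 7.94 to 11.49, both well above the dimmest probe sets.

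Among the 5 Dlg1 probe sets called above the rest, 5022493 deviated most, by 0.81. It read 10.77, 10.98 and 11.04 on the control side and 11.24, 11.43 and 11.33 on the OBX side. All OBX values were above all control values, with a difference of 0.40 (SE 0.13) in a gene that fell. Probe set 4795068 went the same way, from 10.24, 10.07 and 10.37 to 10.57, 10.47 and 10.79. Neither 5022493 nor 4795068 was called higher in the fit across probe sets. At the lower end, 5045375 had a difference of -0.68 and was close to the other probe sets of its group.

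**Figure D3:**
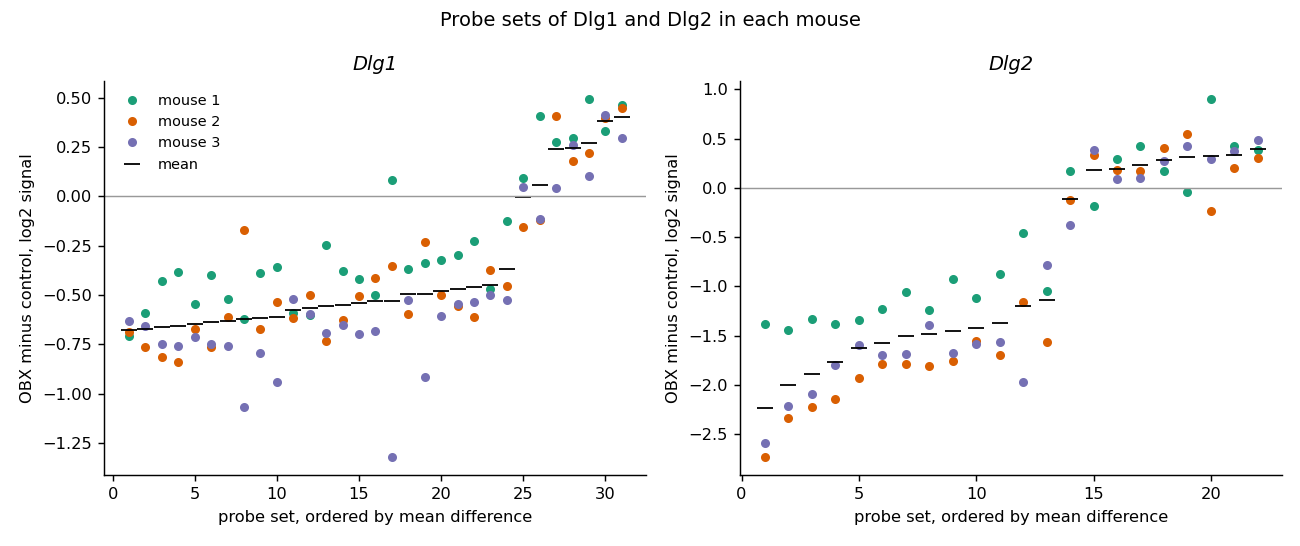
OBX minus control difference in log2 signal of each kept probe set of Dlg1 (31) and Dlg2 (22), ordered by the mean difference, with a coloured point for each mouse and a dash for the mean of 3 mice. The step from the lower to the upper group, after 24 probe sets in Dlg1 and 13 in Dlg2, was drawn from the means shown, and the vertical scales of the panels differ.

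In Dlg3 the gene value averages over a fallen minority, but no wide gap set it apart. Of its 26 kept probe sets, 5 lay under a cut of -1, with differences from -1.46 to -1.02. Their mean signals were 6.14 to 8.13, and 3 of them were called lower. The other 21 ran from -0.83 to 0.13. The widest gap, 0.23, left 1 probe set below it and 25 above. All Dlg3 probe sets with a mean signal above 8.7 lay between -0.08 and 0.13. Probe set 4386271 read 7.68, 6.82 and 7.01 on the control side and 6.29, 5.68 and 5.85 on the OBX side, a difference of -1.23 (SE 0.14). Probe set 4522232 deviated most, by -1.18, with controls of 7.06, 6.22 and 7.33 and OBX values of 5.47, 5.74 and 5.04. On both probe sets the sides did not overlap, and diffSplice called both, the only ones in Dlg3. The highest, 4487595, had a difference of 0.13.

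Dlg4 moved nearly as a block. Of its 20 probe sets 19 lay between -1.06 and -0.12, all below zero. The exception was probe set 4439215, at 5.53, 4.33 and 4.82 on control arrays and 6.14, 5.90 and 5.87 on OBX arrays. It was higher in each mouse, by 0.61, 1.57 and 1.05, and deviated from the rest by 1.85. The dimmest 10% of probe sets lie under a mean signal of 5.07, and the control mean of this probe set, 4.89, was under that limit, so it was kept only through the OBX side (5.97). Its call and the size of its difference therefore support nothing. The other called probe set, 5207651, was the least lowered of the 19 (-0.12), and 4403097 was the most lowered (-1.06).

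Grip1 and Shank3 had a probe set of the same kind. Grip1 probe set 5308993 read 4.73, 4.26 and 4.79 on control arrays and 5.81, 5.96 and 6.32 on OBX arrays, a difference of 1.44 (SE 0.17). Shank3 probe set 4987548 read 5.43, 4.17 and 4.65 on control arrays and 6.43, 6.12 and 5.49 on OBX arrays, a difference of 1.26 (SE 0.25). Control means were 4.59 and 4.75, again under the limit of 5.07, and both probe sets were kept only through the OBX side, at 6.03 and 6.01. The probe sets of Dlg4, Grip1 and Shank3 are the 3 that were called higher in the main setting. Each higher call there rests on a probe set whose control side was too dim to pass by itself.

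**Figure D4:**
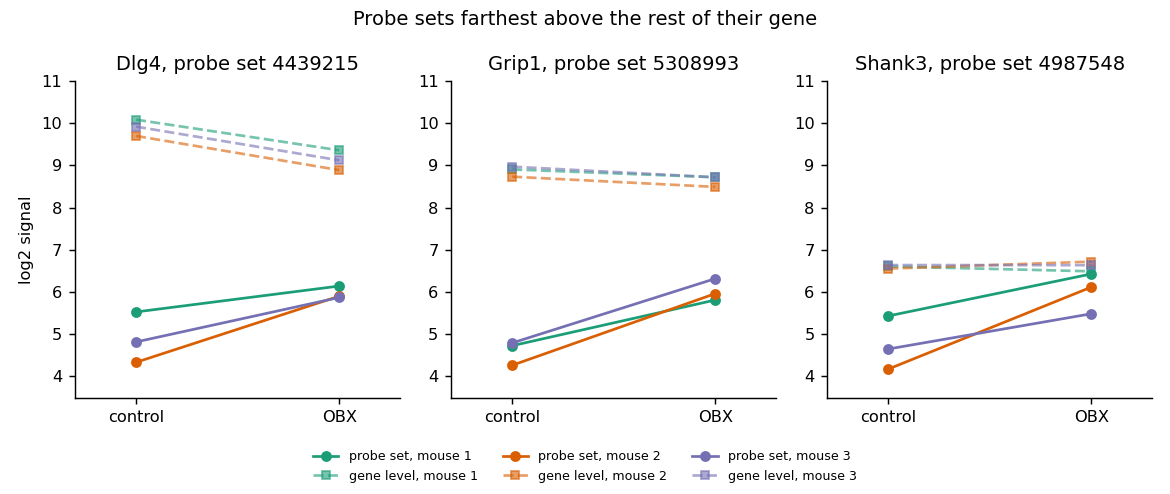
Log2 signal on control and OBX arrays of the probe set farthest above the rest in Dlg4, Grip1 and Shank3 (solid lines, circles) and of the gene level (dashed lines, squares), with a colour for each mouse. Each probe set was higher on the OBX side in all 3 mice, while the gene levels of Dlg4 and Grip1 were lower on that side in all 3. All 3 probe sets stay under a signal of 7, and levels of different probe sets cannot be set against each other.

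Grip1 had 2 more probe sets above the rest, 5181071 with a difference of 0.66 (SE 0.21) and 4718061 with 0.65 (SE 0.26). Its lowest, 5220869, had a difference of -0.69. Across its 33 probe sets, 26 were below zero, in step with the gene value. Shank3 ran from -0.49 at probe set 5233661 to the 1.26 given above.

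In Homer2, probe set 4862859 was the 1 called, above the rest by 0.74. Its control values were 6.85, 7.32 and 7.11 and its OBX values 7.19, 7.67 and 7.60, so the sides overlap, but each mouse was higher on the OBX side. Of the 13 Homer2 probe sets 10 were below zero, down to -0.55 at 4683662. Homer1 had no called probe set and ran from -0.80 at 5099689 to 0.67 at 5397705. The dim probe set 5099689 read the same on both sides of mouse 1.

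Of the genes that work with these scaffolds, 104 of 133 listed were tested, with 21 lower, 10 higher and a median difference of -0.03. The lists came from general knowledge of binding partners, but they were drawn up with earlier results of these data known. The adjusted p-values of partner genes below are therefore not independent tests. The shares of all genes called in each direction, 12.7% and 9.89%, apply here too.

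Among other MAGUK and PDZ scaffolds, 6 of 19 were lower and 2 higher. Mpp2, a MAGUK of the membrane palmitoylated group, read 10.04, 9.56 and 9.99 on control and 9.02, 8.24 and 8.75 on OBX arrays (-1.20, SE 0.10, limma adjusted p = 0.00387). Apba1, or Mint1, which joins Cask in a complex that sorts membrane proteins, was lower by the next largest step, -1.10 (SE 0.13, limma adjusted p = 0.00877). Caskin1, another Cask binder, had -0.71 (SE 0.09, limma adjusted p = 0.0103), and Magi1, a junctional scaffold, -0.78 (SE 0.11, limma adjusted p = 0.0118). Cask itself, at -0.03 (SE 0.08), was not called. The cell polarity genes gave 2 lower and 1 higher of 12, with Pard6b lower (-0.87, SE 0.13, limma adjusted p = 0.0134) and its relative Pard6g higher (0.94, SE 0.13, limma adjusted p = 0.0111). Both encode adaptors of the atypical protein kinase C, of which Prkcz was lower too (-0.63, SE 0.14, limma adjusted p = 0.0352).

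Of 14 partners of Dlg in the density, 3 were lower and 1 higher. Dlgap3, a direct link between Dlg and Shank, read 9.02, 8.51 and 8.68 on control and 7.94, 7.37 and 7.62 on OBX arrays (-1.09, SE 0.08, limma adjusted p = 0.00309). The sides were apart by over 1 log2 unit in each mouse. Abr (-0.60, SE 0.09, limma adjusted p = 0.0133) and the kinase gene Camk2a (-0.68, SE 0.10, limma adjusted p = 0.0149) were lower, and Cnksr2 was higher (0.45, SE 0.11, limma adjusted p = 0.0442).

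Of 16 membrane proteins that Dlg binds, 3 were lower and 1 higher. Adam22, the receptor of the secreted Lgi proteins and a known ligand of PSD-95, was lower (-1.003, SE 0.08, limma adjusted p = 0.00383). Nlgn3, a neuroligin, read 9.89, 9.47 and 9.72 on control and 9.15, 8.66 and 8.86 on OBX arrays (-0.81, SE 0.08, limma adjusted p = 0.00616). Another adhesion gene, Lrfn2 (-0.42, SE 0.08, limma adjusted p = 0.0272), was lower. Lrrc4c, a netrin-G ligand, was higher (0.67, SE 0.09, limma adjusted p = 0.0103).

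**Figure D5:**
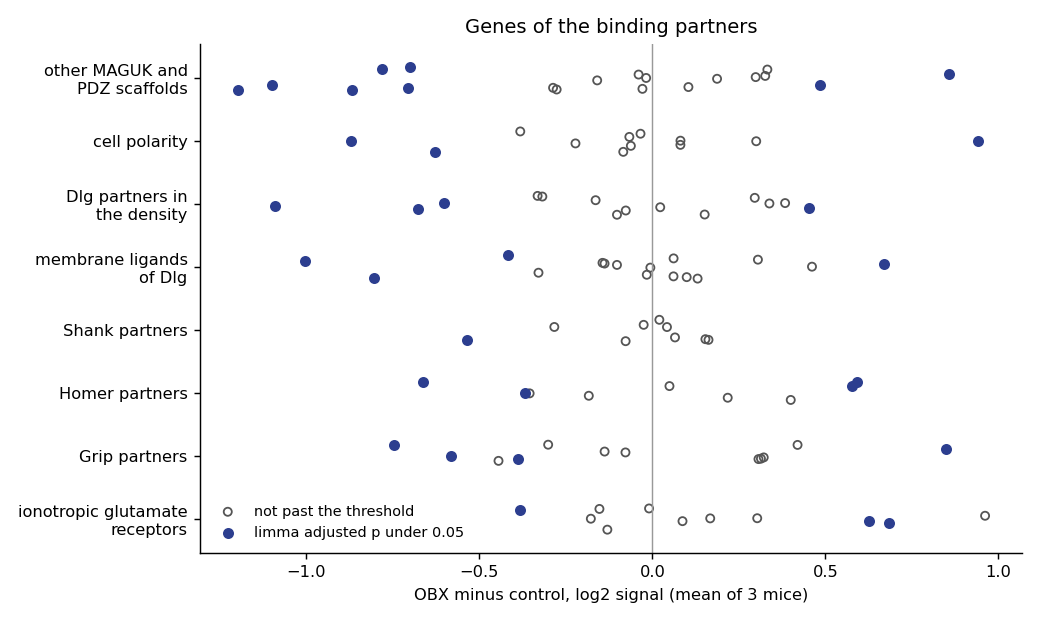
OBX minus control difference in log2 signal (mean of 3 mice) of the tested partner genes in 8 lists, with filled points for limma adjusted p under 0.05. Each list holds genes on both sides of zero, and the lowest points are those of Mpp2, Apba1 and Dlgap3.

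Shank and Homer partners had 1 and 4 calls. Adgrl3, an adhesion receptor, was the 1 of 9 Shank partners called (-0.54, SE 0.08, limma adjusted p = 0.0157). Of 9 Homer partners 2 were higher, the inositol trisphosphate receptors Itpr1 (0.58, SE 0.08, limma adjusted p = 0.0129) and Itpr2 (0.59, SE 0.08, limma adjusted p = 0.0117). The channel genes Trpc1 (-0.66, SE 0.11, limma adjusted p = 0.0200) and Ryr3 (-0.37, SE 0.09, limma adjusted p = 0.0427) were lower. So the Homer partners that release or admit calcium were called in both directions.

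Of 12 Grip partners 3 were lower, namely Ppfia2, a liprin (-0.58, SE 0.08, limma adjusted p = 0.0129), and the kinesin heavy chains Kif5b (-0.39, SE 0.08, limma adjusted p = 0.0351) and Kif5a (-0.75, SE 0.18, limma adjusted p = 0.0467). Fras1, a matrix protein that needs Grip1 at the basal surface of embryonic epithelia in mice, was higher (0.85, SE 0.13, limma adjusted p = 0.0139). Of the ionotropic glutamate receptors, 11 passed the filter on low signal. Grin2a (0.68, SE 0.11, limma adjusted p = 0.0162) and Grik2 (0.63, SE 0.15, limma adjusted p = 0.0404) were higher and Grik5 (-0.38, SE 0.09, limma adjusted p = 0.0430) lower. The control mean of Grik2, 5.08, was just above the limit of 5.02 for the dimmest 10% of genes, which limits what its difference can show. Gria1 and Gria2, whose proteins are classic cargo of Grip1 and Dlg1, were among the dimmest 10% of genes on these arrays and were not tested. The AMPA receptor genes Gria3 and Gria4 were tested, at mean signals of 8.05 and 5.90, and neither was called. Gria3 had the highest difference of all partner genes, 0.96 (SE 0.26, limma adjusted p = 0.0585), and Gria4 stood at 0.30 (SE 0.13, limma adjusted p = 0.160). Without mouse 3 the fit called 4 partner genes lower and 1 higher.

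The genes whose levels ran most like those of Dlg2 over the 6 arrays were Apba1, Mbnl3 and Celf4, with Pearson r of 0.999, 0.998 and 0.998. For Homer1, which had the highest difference of the list, they were Nlk, Uri1 and Cd99l2 (r = 0.999, 0.997 and 0.996). With 6 arrays from 3 mice, and a choice among all genes, these values describe likeness on these arrays and have no test.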

How the data were processed

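Total RNA from the olfactory epithelium of both sides of 3 mice was hybridised to Affymetrix Mouse Exon 1.0 ST arrays. The deposited table holds log2 signal per probe set, which the authors normalized with Affymetrix Expression Console (RMA), per the labels, with versions and genome build not given in the sources used here. It has 229581 probe sets, of which 209279 carry 1 gene symbol in the platform annotation and were used, 4446 carry several and 15856 none. Of their symbols 14190 were current in RefSeq, 2120 were updated and 70 kept as given.

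Gene levels were made by median polish over probe sets. The dimmest 10% of genes (mean log2 signal under 5.02) and of probe sets (under 5.07) were left out. Signal ran from 1.20 to 15.17, with array medians of 8.37 to 8.55. Arrays of the same side correlated at 0.970 to 0.983 and the sides of a mouse at 0.955 to 0.969.

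OBX and control were compared with limma 3.58.1 in R 4.3.3 (lmFit, eBayes, two-sided, Benjamini-Hochberg over all features, threshold 0.05) with mouse as a block. Equal numbers in the titles were taken to mark the 2 sides of 1 mouse, which the titles do not state. All differences within mice rest on that reading. The deviations of the 2 sides from their group means correlated at -0.07, 0.27 and 0.24 in mice 1, 2 and 3. Exon usage was tested with diffSplice in genes with at least 4 kept probe sets. The code was tested on simulated data, with pass criteria only for data in which all probe sets had the same spread. Those criteria do not cover exon usage where the spread differs between probe sets. The alternatives were no block, the methods' paired t-test, other filters, variance models, normalizations and gene summaries, and leaving out each mouse. The exon usage test with each probe set's own spread was added after seeing the data.

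The scaffold genes and all lists were chosen with earlier results of these data known. Named are all scaffold genes, their probe sets called for exon usage or farthest from the rest in each direction, their paralogs, and up to 4 called genes with the smallest p from each partner list. Cask, Gria1, Gria2, Gria3, Gria4, Omp and the partner genes named for exon usage were named after their values were seen. Promoter windows came from RefSeq (GRCm38.p6). Figures were drawn with matplotlib 3.10.9 in Python 3.11.15.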

Additional observations from a re-analysis of the deposited data

How the results depend on the processing

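Dlg1, Dlg2 and Dlg4 were lower on the OBX side under all 15 alternatives run. The scaffold genes called lower numbered 2 to 4, except 0 with the methods' paired t-test after Benjamini-Hochberg adjustment (which called 1 gene of all) and 0 to 2 on leaving out a mouse, with 0 without mouse 3. None was called higher under any alternative run. Not modelling the pairing (no replicate block) gave 3 lower and moved the called-higher probe sets of these genes from 3 to 1, and changed no call of a scaffold gene. The paired t-test at an unadjusted p called Grip1 as well (-0.23). Taking the median of its probe sets turned Dlg3 to 0.054, and their mean gave a call (-0.32). Centring on ribosomal protein genes turned Homer1 to -0.030, and under that centring Homer2 was called (-0.47). Shank3 stood at -0.029 with quantile normalization, -0.018 centred on the array median, -0.087 with ribosomal centring, -0.060 with dim probe sets left out and -0.059 to 0.082 on leaving out a mouse (-0.059 without mouse 2), and with the dimmest 30% of genes left out it was filtered and has no value. Ribosomal centring moved the median of all genes to -0.12 and the share of higher calls from 43.7% to 18.9%.

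The probe sets called lower numbered 29 in the main setting, 58 with the paired t-test unadjusted and 0 adjusted, 13 with no filter on low signal, 48 with the dimmest 30% left out, 62 with a trended and robust variance, and 0 to 18 on leaving out a mouse (0 without mouse 2 and 0 without mouse 3). Those called higher were 9 and 0 with the paired t-test unadjusted and adjusted, and 1 with no filter, with the dimmest 30% left out, with quantile normalization and with either centring, and 0 to 2 on leaving out a mouse. With the dimmest 30% left out, the 3 called higher in the main setting were filtered, so the 1 called is another probe set. Exon usage called 26 probe sets in 7 genes, 16 probe sets with no filter, 0 probe sets and 0 genes with each probe set's own spread (added after seeing the data), and 3 to 13 probe sets in 3 to 6 genes on leaving out a mouse. With the dimmest 30% left out, 18 of the 26 were tested and 18 called, and the 8 not tested were the 3 of Grip1, the 2 of Dlg3, the 1 of Shank3, Dlg4 probe set 4439215 and Dlg2 probe set 4862108. Under that setting Homer1 gained a call in the test per gene, and Grip1 and Shank3 lost theirs, which left 6 genes called. Partner genes called lower went from 21 to 0 and higher from 10 to 0 with the adjusted paired t-test, higher to 6 with ribosomal centring and to 6 with the median of probe sets, and on leaving out a mouse to 4 to 18 lower and 1 to 11 higher. The cause of these moves was not tested. With 3 mice the spread of 1 gene rests on few values, and dim probe sets near the background limit what a difference there can show.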

Other observations

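Exon usage in the partner genes was looked at with the same test. It called 12 of 104 partner genes against 7.99% of all genes tested, by the test per gene with the spread pooled over the gene. Prkcz, an atypical protein kinase C, had probe set 4425999 below the rest of the gene by 1.53 (diffSplice adjusted p = 3.66e-05 for the gene), with a mean signal of 5.68. The difference of this probe set was -2.13, which puts its OBX mean under the limit of 5.07 for the dimmest 10% of probe sets. It was kept only through the control side, so its call and the size of its difference support nothing. In Adam22, a gene that was lower, probe set 4826436 stayed at a difference of 0.03 (adjusted p = 0.000298 for the gene), with a mean signal of 9.30. In Itpr2, a gene that was higher, probe set 5017058 lay above the rest by 1.01 (adjusted p = 0.000257 for the gene). With the spread of each probe set taken by itself 0 probe sets of all genes were called.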
